A study of Mus musculus with 9 samples.

Results

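The 51 genes described here encode enzymes of the citrate cycle and its pyruvate and oxaloacetate side reactions (26 genes), of branched-chain amino acid breakdown and the propionyl-CoA route that follows it (18 genes), and of ketone body and butyrate breakdown (7 genes). The last group includes Abat, the gene of the GABA transaminase. The 51 genes were chosen by symbol, with no measured value in the rule but with earlier results of these data known. All 51 were found among the 21959 genes of the count table. All 51 also passed the filter on low counts that left 14921 genes for testing. Transcripts were measured by poly-A RNA sequencing of whole colon from wild-type mice in 3 groups of 3. Blank mice received no treatment. Model mice received dextran sulfate sodium (DSS), a polymer that injures the colon lining and is used to induce colitis. CDs mice received DSS and carbon dots, small carbon particles, prepared from lotus node charcoal. Every CDs mouse thus also received DSS. The replicates are biological per the series description, while doses, schedule and the age of the mice were not given in the sources used here.

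The citrate cycle in mitochondria oxidises acetyl-CoA to carbon dioxide and passes electrons to the respiratory chain. Leucine, isoleucine and valine are first transaminated, then oxidised by a shared keto acid dehydrogenase, and end as acetyl-CoA, acetoacetate or succinyl-CoA. Butyrate, made by gut bacteria from fibre, is a main fuel of the colon epithelium, and its breakdown uses short-chain acyl-CoA enzymes that also serve fatty acids and ketone bodies.

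Libraries held 13868864 to 19940300 counted reads. Levels are given as CPM, reads relative to the library total, with libraries aligned by the TMM method of edgeR. All of the epithelial marker genes examined had reads in every library. Pancreatic acinar markers made up 5.74% of the reads in the Model library where they were highest and were also present in 1 other Model and 1 CDs library (Model 1, Model 3 and CDs 1 in all), and prostate markers were high in Blank 2 and Blank 3. Counts that these libraries decide are given with and without them. Genes with an edgeR quasi-likelihood p under 0.05 after Benjamini-Hochberg adjustment over all 14921 genes are referred to as called.

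In untreated colon the 4 most abundant genes of the 51 per gene length, Sdhd, Cs, Mdh1 and Sdha, belonged to the citrate cycle. On the FPKM scale, reads scaled to gene length and library total, Sdhd, a membrane anchor of succinate dehydrogenase, had the highest level of the 51 in Blank at 154.7 ± 6.54 (SD, n = 3). Cs, citrate synthase, followed at 111.7 ± 9.71 FPKM, and Oxct1, which activates ketone bodies for oxidation, led its own group at 88.2 ± 2.33 FPKM. The most abundant branched-chain gene was Pccb, a subunit of propionyl-CoA carboxylase, at 57.0 ± 0.546 FPKM. Bcat1, the cytosolic branched-chain aminotransferase, was lowest at 0.0306 ± 0.0162 FPKM, whereas its mitochondrial counterpart Bcat2 stood at 7.83 ± 0.602 FPKM.

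**Figure D1:**
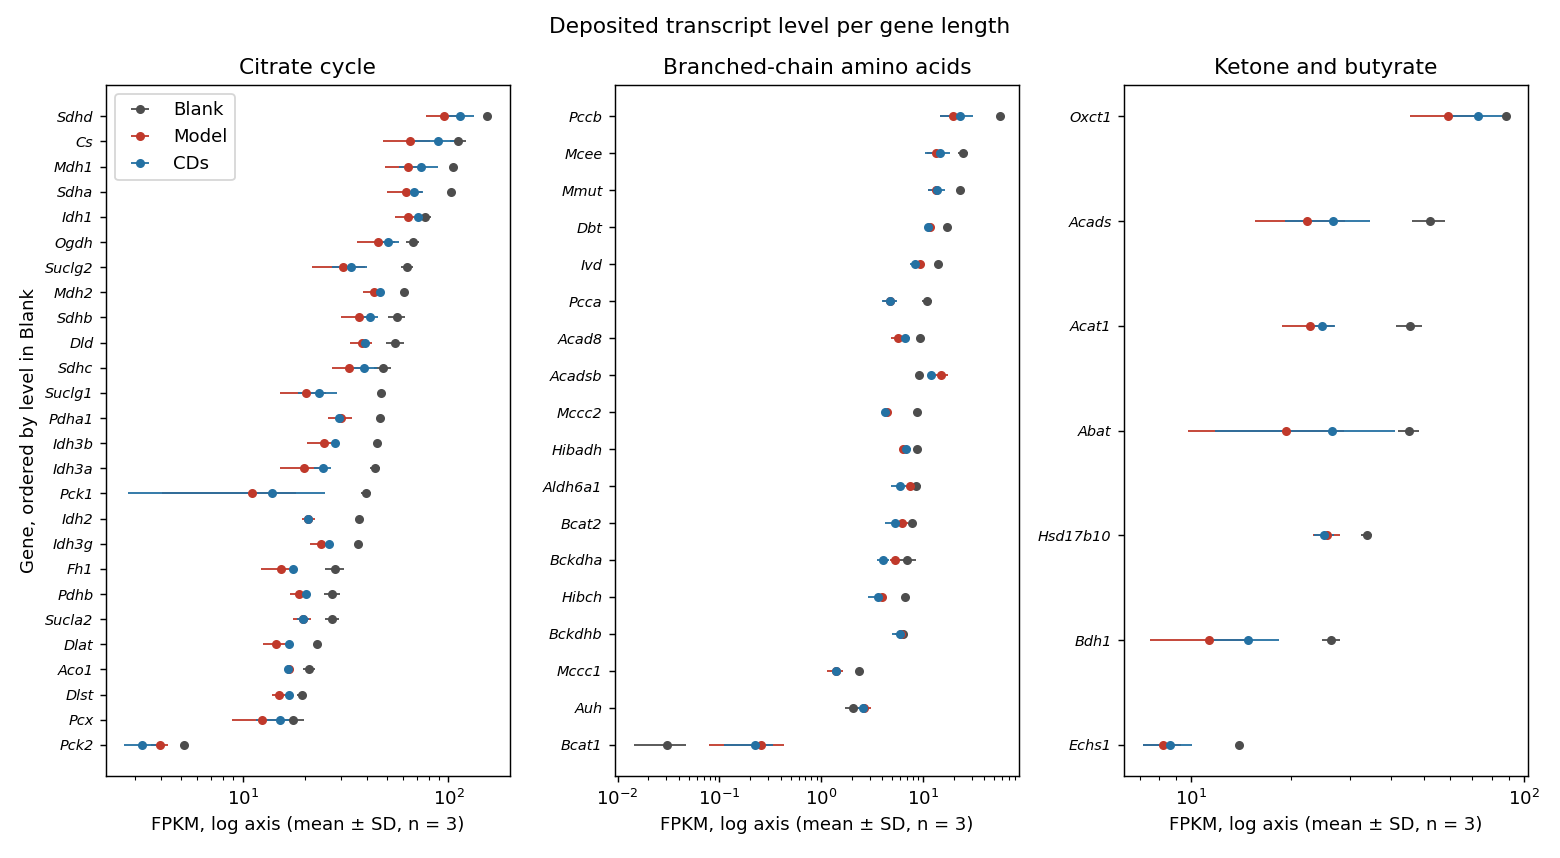
Mean FPKM of the 51 genes in Blank, Model and CDs colon, on a log axis (reads scaled to gene length and library total), with bars of 1 SD over 3 libraries and genes ordered within each list. Sdhd is highest in Blank at 154.7 FPKM and Bcat1 lowest at 0.0306.

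The comparison of Model with Blank asks which of these transcripts differed in DSS-treated colon. Most were lower in Model: 40 of 51 were called lower and 2 called higher, beside 19.6% of all tested genes called lower and 24.5% called higher. Values of Model and Blank did not overlap for 45 genes in the lower direction and 2 in the higher direction, beside 31.0% and 30.0% of all tested genes. The median log2 fold change was -0.69 over the 51 genes and -0.03 over all tested genes. The call of 35 of the 42 called genes was kept with each library left out in turn. Because whole tissue was sequenced, fewer cells of a type and less RNA per cell cannot be told apart. Leaving out Blank 2 and Blank 3 keeps 1 Blank library with its spread taken from the other groups. All 51 genes kept their direction there, with a median log2 fold change of -0.88 for the ketone and butyrate genes. Fewer genes were called in that fit, among the 51 and among all genes, and these counts are given in the last section.

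**Figure D2:**
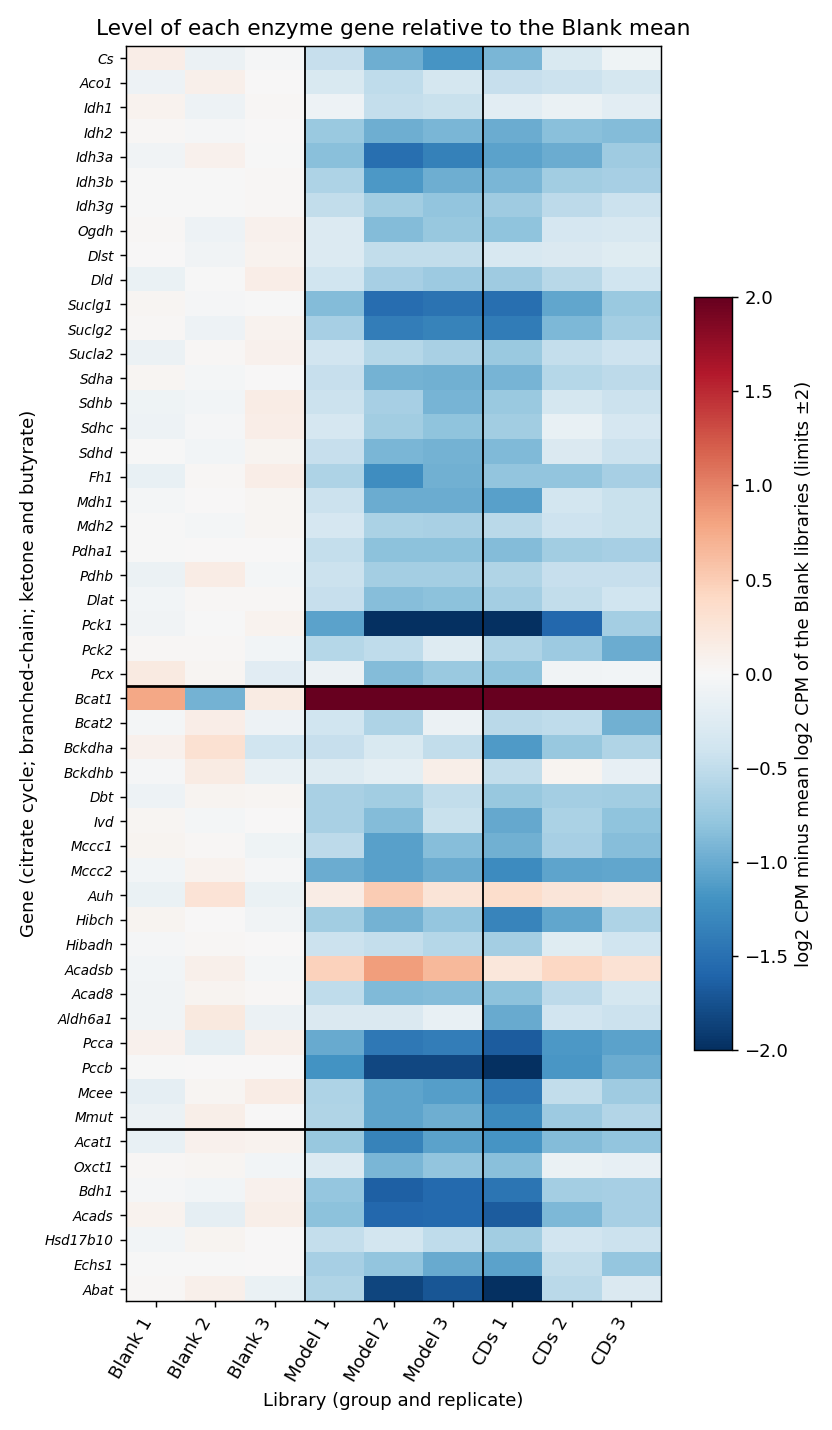
CPM of each of the 51 genes in the 9 libraries as log2 difference from the Blank mean, with the colour scale limited to 2 either way. The 3 Blank libraries are near 0 for most genes, and Model 1, CDs 2 and CDs 3 are closer to Blank than Model 2, Model 3 and CDs 1 for most citrate cycle genes.

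Of the 26 citrate cycle genes, 23 were called lower in Model, 0 were called higher and 3 were not called. Beside them, 19.6% of all tested genes were called lower and 24.5% higher. The median log2 fold change of the 26 genes was -0.68. The steps that make and oxidise citrate and isocitrate were among those called lower. Idh3a, the catalytic subunit of the NAD-dependent isocitrate dehydrogenase (chromosome 9, 54493618 to 54511945 as deposited), stood at 220, 244 and 228 CPM in Blank and at 128, 81.4 and 90.6 CPM in Model. The groups did not overlap, and the lowest Blank library was well above the highest Model library. Its log2 fold change was -1.20 ± 0.18 (SE; edgeR adjusted p = 0.00111); the level fell by 56.6%. Its partner subunits Idh3b and Idh3g fell by 0.90 and 0.66 on the log2 scale. Idh2, the NADP-dependent mitochondrial enzyme, was at 99.6, 96.1 and 98.7 CPM in Blank and at 59.0, 49.8 and 52.4 CPM in Model. The libraries of each group were close together and far from the other group, with a log2 fold change of -0.87 ± 0.09 (SE; adjusted p in edgeR = 0.000336). Idh1, the cytosolic enzyme, was 205, 159 and 162 CPM in Model against 231, 206 and 224 CPM in Blank and was not called (log2 fold change -0.33 ± 0.12; edgeR adjusted p = 0.0505). Without Model 1 its log2 fold change was -0.46 (edgeR adjusted p = 0.00786).

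Citrate synthase was lower with a wider spread. Cs was at 728, 614 and 657 CPM in Blank and at 484, 337 and 295 CPM in Model, a log2 fold change of -0.84 ± 0.24 (SE; adjusted p in edgeR = 0.0227). Model 1 lay above the other Model libraries, and the groups did not overlap. Aco1, the cytosolic aconitase, fell by 0.39 on the log2 scale.

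All 6 genes from 2-oxoglutarate to succinate were called lower, beside 19.6% of all tested genes. Suclg1 and Suclg2, subunits of succinyl-CoA synthetase, had the lowest fold changes of the 6. Suclg1, the alpha subunit shared by both forms of the enzyme (chromosome 6, 73225365 to 73253894 as deposited), was at 229, 220 and 222 CPM in Blank and at 123, 77.9 and 80.6 CPM in Model. Its groups did not overlap, Model 1 was the highest Model library, and the log2 fold change was -1.26 ± 0.22 (SE; edgeR adjusted p = 0.00262). The beta subunit of the GTP-forming enzyme, Suclg2, fell by 1.09 on the log2 scale, and that of the ATP-forming enzyme, Sucla2, fell by 0.53. The FPKM ratio of Suclg2 to Sucla2 was 2.32 ± 0.224 in Blank against 1.55 ± 0.312 in Model (SD over 3 libraries), with no overlap between the groups. An exact permutation test on 3 against 3 libraries cannot go below a two-sided p of 0.1. Of the 2-oxoglutarate dehydrogenase subunits, Ogdh fell by 0.61, Dlst by 0.41 and Dld, which also serves the pyruvate and branched-chain complexes, by 0.59.

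All 7 genes from succinate to oxaloacetate were called lower, beside 19.6% of all tested genes. Sdhd was at 196, 190 and 204 CPM in Blank and at 143, 105 and 102 CPM in Model. The highest Model library remained below the lowest Blank library, and the log2 fold change was -0.76 ± 0.18 (SE; edgeR adjusted p = 0.00939). The other succinate dehydrogenase genes Sdha, Sdhb and Sdhc fell by 0.77, 0.67 and 0.60. Fh1, fumarase, fell by 0.93, and the cytosolic and mitochondrial malate dehydrogenases Mdh1 and Mdh2 fell by 0.78 and 0.53. The pyruvate dehydrogenase genes Pdha1, Pdhb and Dlat, which make acetyl-CoA for the cycle, fell by 0.69, 0.60 and 0.70.

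The genes joining oxaloacetate to phosphoenolpyruvate were the least uniform. Pck1, the cytosolic carboxykinase (chromosome 2, 172994841 to 173001066 as deposited), was at 134, 140 and 148 CPM in Blank, at 66.6, 22.8 and 24.8 CPM in Model and at 8.83, 47.5 and 87.9 CPM in CDs. All DSS-treated libraries were below all Blank libraries, and the CDs libraries reached from below to above the range of Model. The log2 fold change of Model against Blank was -1.89 ± 0.69 (SE; edgeR adjusted p = 0.052), and -2.56 without Model 1 (edgeR adjusted p = 0.0247). Without CDs 1 and without CDs 3, which enter the fit through the shared spread, its edgeR adjusted p was 0.00742 and 0.0371. Pck2, the mitochondrial enzyme, fell by 0.44, while Pcx, pyruvate carboxylase, had a log2 fold change of -0.55 ± 0.25 and was not called (edgeR adjusted p = 0.103; 0.0213 without Model 1). The calls of Cs, Ogdh, Sdhc, Mdh1 and Pck2 were lost when single libraries were left out. The edgeR adjusted p reached 0.0785 for Cs, 0.0775 for Sdhc and 0.0679 for Mdh1 without Model 3, 0.0938 for Ogdh without Model 2 and 0.0716 for Pck2 without Blank 2.

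The upstream sequence of Pck1 is shown because this gene is a textbook case of cyclic AMP control and had the lowest fold change of the 51. The 250 bases before its RefSeq start, chr2:173152823-173153072 on the plus strand of GRCm38.p6, are printed 5′ to 3′ with the letters TTACGTCA in capitals.
Pck1: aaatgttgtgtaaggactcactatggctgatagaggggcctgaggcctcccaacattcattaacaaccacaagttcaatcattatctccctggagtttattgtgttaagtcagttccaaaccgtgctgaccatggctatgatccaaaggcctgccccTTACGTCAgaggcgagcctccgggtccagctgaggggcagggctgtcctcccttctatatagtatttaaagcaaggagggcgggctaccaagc
The match begins 93 bases before the start. A gene was counted if the 250 bases before any of its listed starts held the letters on either strand. TTACGTCA was found in 1 of the 45 members with a promoter in the table and in 0.525% of 27025 genes. The related palindrome TGACGTCA was found in 2 members, Mdh2 and Ogdh, and in 1.77% of genes. These matches describe the letters only.

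**Figure D3:**
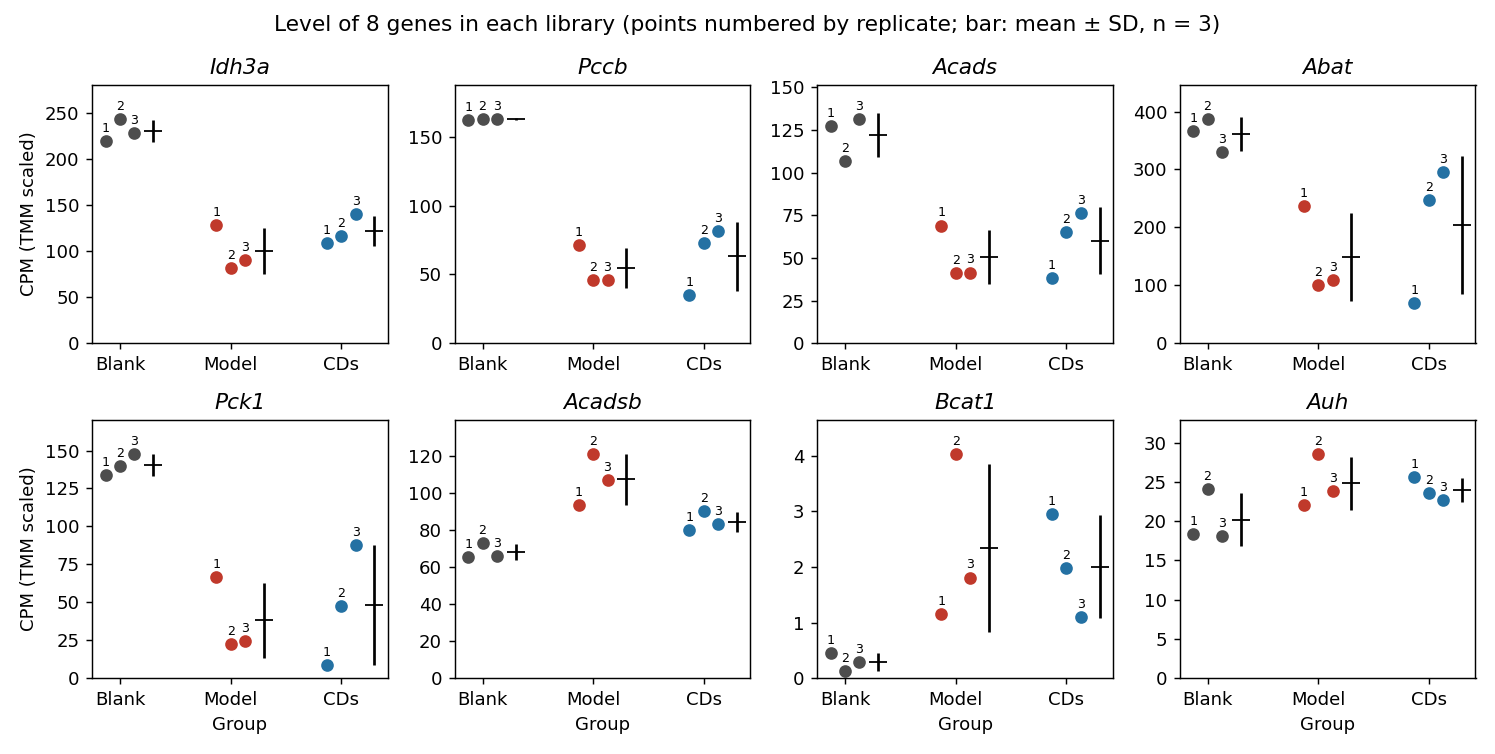
CPM in each of the 9 libraries for 8 genes, 1 panel each, on linear axes from 0, with points numbered by replicate and a bar for the group mean ± SD (n = 3). For Pccb the 3 Blank libraries lie at 162 to 163 CPM and the 6 DSS-treated libraries at 34.7 to 81.8 CPM.

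Of 18 branched-chain amino acid genes, 11 were called lower in Model, 2 higher and 5 not called. Beside them, 19.6% of all tested genes were called lower and 24.5% higher. The median log2 fold change of the 18 genes was -0.63. The 2 branched-chain genes called higher were Bcat1 and Acadsb. Bcat1, the cytosolic aminotransferase, was at 0.450, 0.137 and 0.295 CPM in Blank and at 1.16, 4.04 and 1.81 CPM in Model. These are 2 to 7 reads per Blank library and 16 to 85 reads per Model library, so the fold change is imprecise although the groups did not overlap. Its log2 fold change was 2.97 ± 0.65 (SE; edgeR adjusted p = 0.00669), and 2.30 without Model 2. Bcat2, the mitochondrial aminotransferase, had a log2 fold change of -0.37 ± 0.17 and was not called (edgeR adjusted p = 0.102).

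Acadsb, which oxidises the acyl-CoA derived from isoleucine (chromosome 7, 131012330 to 131050673 as deposited), was at 65.1, 73.1 and 65.9 CPM in Blank, 93.4, 121 and 107 CPM in Model and 79.9, 90.3 and 82.9 CPM in CDs. The 3 groups did not overlap, with CDs between the others. The log2 fold change of Model against Blank was 0.65 ± 0.11 (SE; edgeR adjusted p = 0.00222). Acadsb overlaps Fgfr2 on the opposite strand, and whether the counting used strand was not given in the sources used here. Fgfr2, named for this overlap, had group means of 76.7, 118.6 and 96.2 CPM in Blank, Model and CDs, and how far its reads enter the Acadsb count was not tested.

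The shared keto acid dehydrogenase was called in 1 of its 3 specific subunits. Dbt, its transacylase, fell by 0.61 on the log2 scale, whereas Bckdha and Bckdhb had log2 fold changes of -0.44 and -0.11 and were not called (edgeR adjusted p = 0.11 and 0.642). Without Blank 3 the edgeR adjusted p of Bckdha was 0.0405. In the leucine branch, Ivd, the isovaleryl-CoA dehydrogenase, fell by 0.64, and both subunits of methylcrotonyl-CoA carboxylase fell, Mccc1 by 0.81 and Mccc2 by 1.02. Mccc2 was at 24.3, 26.5 and 24.8 CPM in Blank and at 12.7, 11.9 and 12.7 CPM in Model (edgeR adjusted p = 0.0004). The Model values lay within 1 CPM of each other and far below Blank. Auh, the next enzyme of that branch, had a log2 fold change of 0.30 ± 0.15 and was not called (edgeR adjusted p = 0.137). In the valine branch, Acad8, Hibch and Hibadh fell by 0.75, 0.80 and 0.49, and Aldh6a1 had a log2 fold change of -0.25 ± 0.16 and was not called (edgeR adjusted p = 0.243).

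All 4 genes that turn propionyl-CoA into succinyl-CoA were called lower, beside 19.6% of all tested genes. Their median log2 fold change was -1.09. Pccb, the beta subunit of propionyl-CoA carboxylase (chromosome 9, 100864085 to 100916951 as deposited), was at 162, 163 and 163 CPM in Blank and at 71.3, 46.3 and 46.2 CPM in Model. The Blank libraries were almost equal and far above every Model library. The log2 fold change was -1.58 ± 0.30 (SE; edgeR adjusted p = 0.00348); the level fell by 66.5%. The alpha subunit Pcca was at 62.9, 51.7 and 63.2 CPM in Blank and at 29.3, 22.0 and 22.7 CPM in Model, a log2 fold change of -1.27 ± 0.18 (SE; adjusted p in edgeR = 0.00102). Mmut, the B12-dependent mutase, fell by 0.87, and Mcee, the epimerase before it, fell by 0.92. The call of Mcee was lost without Model 2 or Model 3, with an edgeR adjusted p of up to 0.0581.

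The upstream sequence of Pccb is shown because it had the lowest log2 fold change among called members. The 250 bases before its RefSeq start, chr9:101034885-101035134 on the minus strand of GRCm38.p6, are printed 5′ to 3′ with GCGCATGCG, the core of the site bound by the mitochondrial gene regulator NRF1, in capitals.
Pccb: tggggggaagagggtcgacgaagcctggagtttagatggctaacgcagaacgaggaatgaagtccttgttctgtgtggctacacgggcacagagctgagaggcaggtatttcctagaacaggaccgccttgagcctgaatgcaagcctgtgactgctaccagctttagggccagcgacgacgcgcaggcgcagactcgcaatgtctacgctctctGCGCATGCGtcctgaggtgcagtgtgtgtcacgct
The match begins 35 bases before the start. Counted over any listed start of a gene and on either strand, GCGCATGCG was found in 2 of 45 members, Pccb and Ogdh. It was found in 1.64% of 27025 genes. TCAAGGTCA, a site of estrogen-related receptors, was found in 0 of 45 members and in 0.422% of genes. The table held no promoter for Abat, Acat1, Dbt, Idh3a, Mmut and Sdhc.

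Of the 7 ketone and butyrate genes, 6 were called lower in Model and 0 higher, beside 19.6% and 24.5% of all tested genes. Their median log2 fold change was -1.04, beside -0.03 over all tested genes. Acads, the dehydrogenase of short-chain acyl-CoAs including butyryl-CoA (chromosome 5, 115248358 to 115257405 as deposited), was at 127, 107 and 132 CPM in Blank and at 69.0, 41.1 and 41.4 CPM in Model. The groups did not overlap, and the log2 fold change was -1.27 ± 0.28 (SE; edgeR adjusted p = 0.00678). Bdh1, which interconverts the 2 main ketone bodies, was at 104, 101 and 112 CPM in Blank and at 61.7, 34.2 and 35.8 CPM in Model, also a log2 fold change of -1.27, with an SE of 0.27 (edgeR adjusted p = 0.00557). In both genes Model 1 was the Model library nearest to Blank. Acat1, the mitochondrial acetoacetyl-CoA thiolase, fell by 1.04. Echs1 and Hsd17b10, which act on short-chain enoyl- and hydroxyacyl-CoAs, fell by 0.81 and 0.45.

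Oxct1 fell by 0.63 (edgeR adjusted p = 0.0437), and this call was lost when any of 6 libraries was left out, with an edgeR adjusted p of up to 0.137 without Model 2. Abat, the GABA transaminase (chromosome 16, 8331293 to 8439432 as deposited), was at 366, 388 and 330 CPM in Blank, 237, 101 and 110 CPM in Model and 70.2, 247 and 296 CPM in CDs. All Model and CDs libraries were below Blank, but both groups were widely spread. Its log2 fold change of -1.28 ± 0.50 in Model was not called (edgeR adjusted p = 0.0632). It was -1.78 without Model 1 (edgeR adjusted p = 0.0232), and without CDs 1 the edgeR adjusted p was 0.0106.

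**Figure D4:**
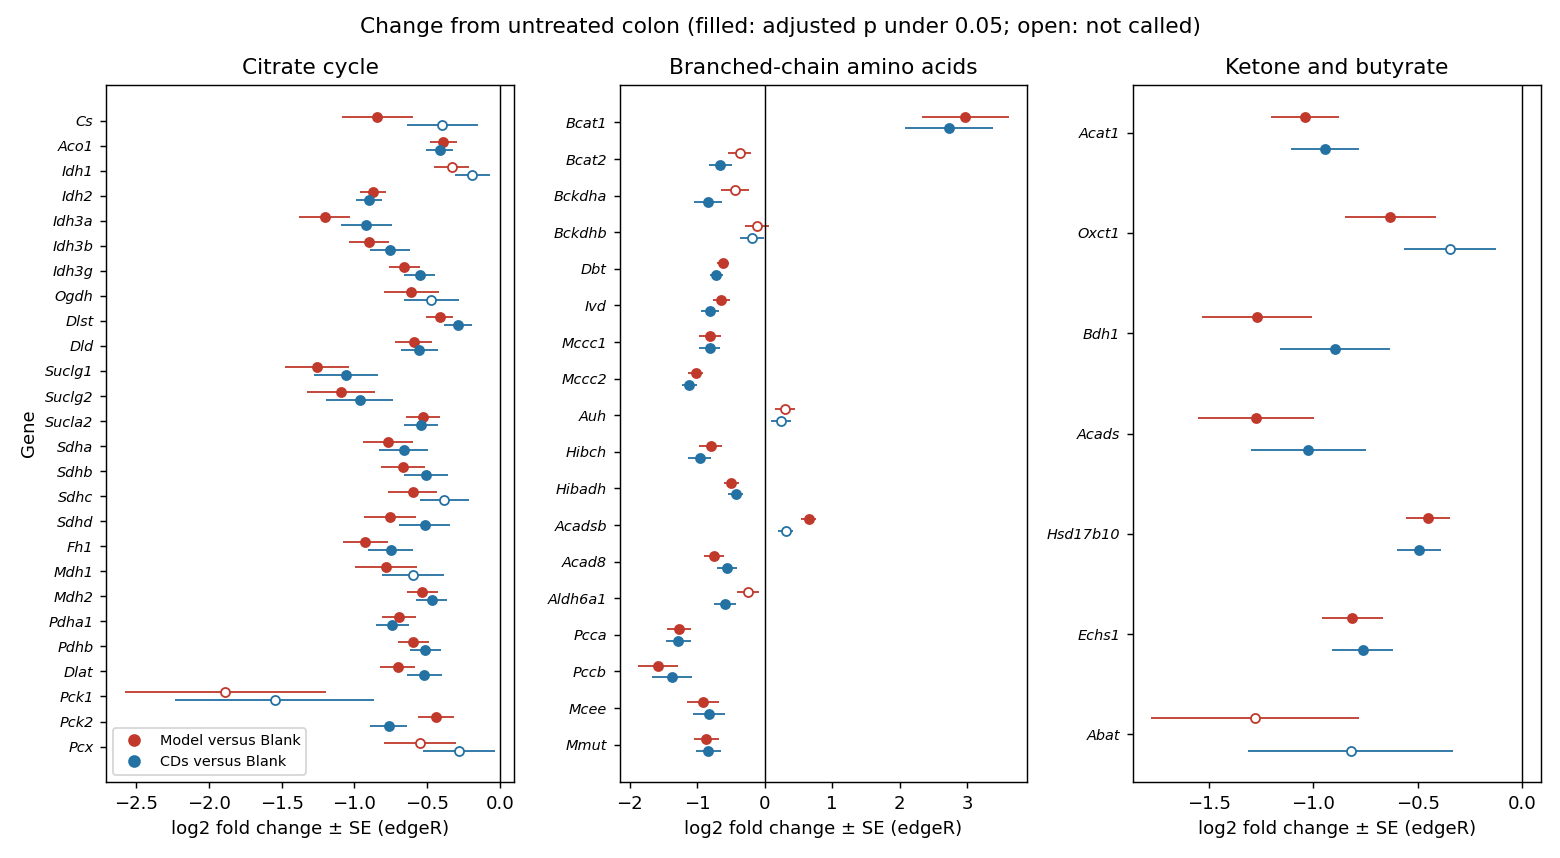
Log2 fold change of each of the 51 genes with bars of 1 SE, for Model against Blank (red) and CDs against Blank (blue), which share the Blank libraries, with filled points for called genes. Model against Blank ranges from -1.89 (Pck1) to 2.97 (Bcat1), and CDs against Blank from -1.55 (Pck1) to 2.73 (Bcat1).

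Of 16 markers of colon epithelium, all tested, 4 were called lower in Model, 0 were called higher and 12 were not called. Beside them, 19.6% of all tested genes were called lower. The median log2 fold change of the 16 markers was -0.74, with 15 of 16 below 0. Immune cell markers were called higher in 8 of 10 and stroma and vessel markers in 9 of 9, beside 24.5% of all tested genes. Of 7 smooth muscle markers, 0 were called. Adipocyte markers were called higher in 5 of 7, with a median log2 fold change of 1.89. For CDs against Model their median was -1.11, with 0 of 7 called, beside 0.00% of all tested genes. At an unadjusted edgeR p under 0.05 there were 4 of 7, beside 5.28% of all tested genes. The part of the adipocyte markers in the enzyme values was not tested. Summed epithelial marker levels were 14546 to 17612 CPM in Blank and 7983 to 14011 CPM in Model. When each gene was divided by the geometric mean of the 16 epithelial markers in its library, Model remained below Blank without overlap for 9 of 51 genes, beside 3.44% of all tested genes. These were Idh3a, Suclg1, Suclg2 and Pck1 of the citrate cycle, Pcca and Pccb of the propionyl-CoA route, and Bdh1, Acads and Abat. The difference of this log2 ratio was -1.18 for Pck1, -0.73 for Pccb, -0.50 for Abat, -0.43 for Acads and -0.40 for Suclg1. Relative to the markers, 39 genes overlapped, and Idh1, Bcat1 and Acadsb were higher without overlap, beside 53.2% of all tested genes. The median difference over the 51 genes was 0.18. In CDs, measured the same way, 7 genes were lower than Blank without overlap (Suclg1, Suclg2, Pck1, Pcca, Pccb, Bdh1 and Acads), beside 3.52% of all tested genes, and Bcat1 and Acadsb were higher, beside 34.7%. The part of the lower epithelial marker level in these results was not tested further.

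Isocitrate dehydrogenase genes shifted relative to each other. The FPKM ratio of Idh1 to Idh2 was at most 2.17 in Blank, 2.89 to 3.26 in Model and 3.29 to 3.60 in CDs, with means of 3.04 ± 0.190 in Model and 3.43 ± 0.154 in CDs (SD over 3 libraries). Every DSS-treated library was above every Blank library. Model and CDs did not overlap either, by the narrow gap of 3.26 to 3.29, and this difference was not tested. For CDs against Model neither gene was called, with log2 fold changes of 0.14 for Idh1 and -0.03 for Idh2 (edgeR adjusted p = 0.936 and 0.978). In all other isozyme pairs examined Model and CDs overlapped, as for Mdh1 to Mdh2 at 1.35 to 1.63 in Model and 1.20 to 1.80 in CDs. The FPKM ratio of Pck1 to Pck2 was 7.16 to 8.36 in Blank and 1.62 to 5.38 in Model, whereas CDs ran from 0.736 to 9.49 and so overlapped both.

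Genes that serve the same routes but are not among the 51 were listed as companions. Of 31 citrate cycle companions, 14 were called lower in Model and 4 higher, beside 19.6% and 24.5% of all tested genes. Acly, which splits citrate in the cytosol, fell by 1.08 on the log2 scale. Acod1, which turns the intermediate aconitate into itaconate in activated myeloid cells, was at 1.03, 0 and 0.590 CPM in Blank and at 8.06, 32.9 and 15.4 CPM in Model. With 84.0, 19.9 and 24.4 CPM in CDs, Acod1 was higher in every DSS-treated library than in every Blank library.

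Of 22 tested branched-chain companions, 11 were called lower and 4 higher, beside 19.6% and 24.5% of all tested genes. Slc43a2 and Slc3a2, parts of carriers that take up large neutral amino acids, rose by 1.85 and 0.92 on the log2 scale, and Lipt2, of the lipoylation pathway that the dehydrogenase complexes need, fell by 1.32. Of 20 tested ketone and butyrate companions, 14 were called lower and 3 higher, beside the same shares of all tested genes. Aldh5a1, which follows Abat in GABA breakdown, fell by 1.67, Aacs, which activates acetoacetate in the cytosol, fell by 1.37, and the lactate exporter Slc16a3 rose by 2.17. The butyrate carriers Slc5a8 and Slc16a1, named after their values were seen, fell by 2.13 and 1.10. Slc5a8 was at 660, 659 and 477 CPM in Blank and at 234, 92.0 and 86.1 CPM in Model, with Model 1 nearest to Blank.

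The comparison of CDs with Blank shares its Blank libraries with the one above. In CDs, 38 of 51 genes were called lower, 1 higher and 12 were not called, beside 13.8% of tested genes called lower and 21.8% called higher. CDs and Blank did not overlap for 45 genes in the lower and 2 in the higher direction, beside 25.9% and 28.2%. By list, 19 of 26 citrate cycle genes, 14 of 18 branched-chain genes and 5 of 7 ketone and butyrate genes were called lower. A total of 35 genes were called lower in both comparisons. Cs, Ogdh, Sdhc, Mdh1 and Oxct1 were called lower in Model and not called in CDs, and Bcat2, Bckdha and Aldh6a1 were called lower in CDs and not called in Model. For each of these, the test of CDs against Model did not call a difference. Without Model 1, Ogdh and Mdh1 were called lower in CDs as well (edgeR adjusted p = 0.0394 and 0.0321).

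Among the citrate cycle genes, Idh3a was at 109, 116 and 141 CPM in CDs and Suclg1 at 78.7, 109 and 134 CPM, both below Blank in every library, with log2 fold changes of -0.92 and -1.06. Pck1 had a log2 fold change of -1.55 ± 0.68 and was not called (edgeR adjusted p = 0.106), but without CDs 3 the value was -2.31 (edgeR adjusted p = 0.0412). Pccb was at 34.7, 72.9 and 81.8 CPM in CDs, a log2 fold change of -1.37 ± 0.29 (SE; adjusted p in edgeR = 0.00799), and Mccc2 fell by 1.12. Bcat1 was at 2.94, 1.97 and 1.10 CPM in CDs, a log2 fold change of 2.73 ± 0.65 (SE; adjusted p in edgeR = 0.0124). Some of the counts depended on single libraries, while 16 to 21 citrate cycle genes were called lower with each library left out. Without Blank 2, 8 branched-chain genes were called lower and 0 higher, the edgeR adjusted p of Bcat1 being 0.0502, and 3398 of all genes were called in place of 5309. Without Blank 1 or Blank 3, 3 ketone and butyrate genes were called lower, and without Model 1 or Model 2 a second branched-chain gene, Acadsb, was called higher. In all, 12 of the 39 called genes lost their call without at least 1 library, with edgeR adjusted p of up to 0.123. Without Blank 2 and Blank 3, which keeps 1 Blank library, all 51 genes kept their direction in CDs. Fewer genes were called in that fit, among the 51 and among all genes, and these counts are given in the last section.

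The comparison of CDs with Model asks whether the carbon dots changed these transcripts in DSS-treated colon. None of the 51 genes was called by edgeR, beside 0.00% of all tested genes. At an unadjusted p under 0.05 there were 2 of 51, beside 5.28% of all tested genes, and DESeq2 and limma called 0 of the 51. The lowest edgeR adjusted p among the 51 was 0.891, for Acadsb (log2 fold change -0.34 ± 0.11), and the other was Pck2 (-0.32 ± 0.13; edgeR adjusted p = 0.936). CDs lay below Model without overlap for 4 genes, Pck2, Bckdha, Acadsb and Aldh6a1, and above for 0, beside 4.77% and 3.22% of all tested genes. The log2 fold changes ran from -0.40 (Bckdha) to 0.46 (Abat), with a median of 0.14 for citrate cycle, -0.09 for branched-chain and 0.25 for ketone and butyrate genes, beside 0.02 over all tested genes. Without Model 1, Model 3 and CDs 1 these medians were 0.41, 0.14 and 0.77, so that of the branched-chain genes changed sign. The sign of CDs against Model changed under at least 1 alternative for 23 of the 51 genes, and no value of changed sign was called.

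The spread within the DSS-treated groups was wide. The median coefficient of variation over the 51 genes was 5.70% in Blank, 16.2% in Model and 15.1% in CDs. Model 1 was the highest Model library for 25 of 26 citrate cycle genes, and CDs 1 was the lowest CDs library for 24 of 26 citrate cycle, 15 of 18 branched-chain and 7 of 7 ketone and butyrate genes. The mean log2 difference from Blank over the 26 citrate cycle genes was -0.48, -0.93 and -0.90 in Model and -0.92, -0.55 and -0.49 in CDs. For the ketone and butyrate genes it was -0.63, -1.20 and -1.17 in Model and -1.32, -0.57 and -0.54 in CDs. The mean of the branched-chain genes varied less in Model, at -0.36, -0.42 and -0.40, and stood at -0.69, -0.35 and -0.43 in CDs. This mean includes Bcat1, which has few reads and rose against the direction of most of its list, most in Model 2. The summed CPM of the list, to which Bcat1 adds little, was 620, 574 and 591 in Model and 465, 611 and 602 in CDs. By that sum Model 1, CDs 2 and CDs 3 were nearest to Blank. For epithelial markers the values were -0.30, -1.25 and -1.10 in Model and -1.23, -0.50 and -0.05 in CDs. Model 1, CDs 2 and CDs 3 were thus the DSS-treated libraries nearest to Blank for the citrate cycle, the ketone and butyrate genes and the epithelial markers alike.

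**Figure D5:**
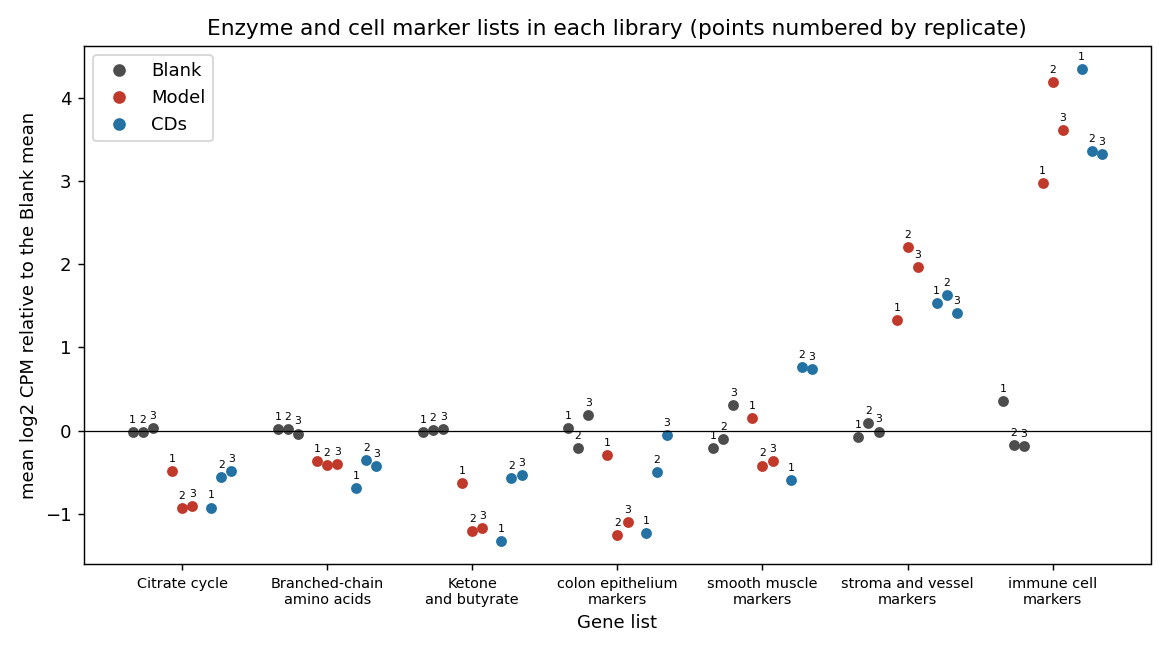
Mean log2 difference from the Blank mean for the 3 enzyme lists and 4 lists of cell markers, by library, with points numbered by replicate. Model 1, CDs 2 and CDs 3 are the highest DSS-treated libraries for citrate cycle genes at -0.48, -0.55 and -0.49, and CDs 1 is the lowest for branched-chain genes at -0.69.

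Leaving out the 3 libraries with pancreatic transcripts, Model 1, Model 3 and CDs 1, compares 2 CDs libraries with Model 2 as the sole Model library, whose spread is taken from the other groups. In that comparison 13 of the 51 genes were called, all higher in CDs, together with 752 genes higher and 489 lower among 15411 tested. The 13 were Abat, Acads, Bdh1, Cs, Idh3a, Idh3b, Mdh1, Oxct1, Pccb, Pck1, Pcx, Sdhd and Suclg1, with log2 fold changes from 0.47 (Idh3b) to 1.57 (Pck1). Model 1, the Model library nearest to Blank, and CDs 1, the CDs library farthest from it, are both absent there, and with each single library left out 0 genes were called. Among companions, Pdk4, a kinase that switches off pyruvate dehydrogenase, was at 35.4, 15.8 and 17.6 CPM in Model and at 6.65, 9.57 and 12.4 CPM in CDs. CDs lay below Model without overlap and Pdk4 was not called (log2 fold change -1.26 ± 0.40; edgeR adjusted p = 0.891). Of the other companions with the lowest p in this comparison, Dhtkd1, Slc43a1, Hlcs, Acss3 and Etfb had log2 fold changes of -0.95, -0.48, 0.18, -0.76 and 0.73 and were not called.

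Of the 51 genes, 12 overlap another gene in the deposited coordinates and are uncertain to that extent. Besides Acadsb these include Pcca, whose neighbour Ggact had means of 25.0 CPM in Blank and 13.2 in Model, and Fh1, whose neighbour Kmo was at 4.58 and 12.7 CPM. The others are Idh3b, Sucla2, Mdh1, Pdha1, Pcx, Bckdha, Aldh6a1, Mmut and Echs1. All 12 partners lie on the opposite strand.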

How the data were processed

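Poly-A RNA from the colon of 9 mice was sequenced, 3 per group, and groups and replicate numbers were taken from the sample titles. Per the submitters' processing notes, the tools included HTSeq 0.9.1, HISAT2 2.1.0 and fastp 0.22.0. Genome build and strand setting were not given in the sources used here. Gene positions are printed as deposited, with no build assigned, and are not comparable with the GRCm38.p6 positions of the RefSeq promoters. The authors deposited, per the file headers, a count of reads for each gene and library beside an FPKM value. Each deposited FPKM value was the count over gene length and library total, in 100% of values (relative tolerance 1e-06).

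Counts were tested with edgeR 4.0.16 in R 4.3.3 (quasi-likelihood F test, two-sided, all 9 libraries in 1 fit, 1 coefficient per group, expression filter, TMM scaling, Benjamini-Hochberg adjustment over 14921 genes). Standard errors (SE) are the log2 fold change over the root of the F statistic. CPM values are TMM-scaled. A count of 0 allows up to 3 reads, 0.142 to 0.221 CPM by library, for counting error alone. The test was also run on simulated counts with the same spread in every group, which these libraries do not have. No result here rests on that run. Alternatives were DESeq2 1.42.0 (test and size factors), limma 3.58.1 on log2 FPKM with a pseudocount of 1 or 0.1, no filter, only the 6 libraries compared, the replicate number as a block, each library left out, and the libraries with pancreatic or prostate transcripts left out.

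Promoter letters are the 250 bases before a RefSeq start in GRCm38.p6, and a gene with several starts counted once if any window matched. By symbol, 45 of 51 genes were matched. Named genes were all 51 members and, of each companion list, the 3 with the smallest p in Model against Blank and the 2 with the smallest in CDs against Model. Of these, 1 gene is not reported here. The 51 genes and the lists were chosen with earlier results of these data known.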

Additional observations from a re-analysis of the deposited data

How the results depend on the processing

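All member fold changes against Blank kept their direction under every alternative. For Model against Blank, the counts with each library left out were 18 to 25 citrate cycle, 10 to 12 branched-chain and 5 to 7 ketone and butyrate genes lower, 2 branched-chain genes higher, and 4405 to 7459 of all genes called. For CDs against Blank they were 16 to 21, 8 to 14 and 3 to 5 lower, 0 to 2 branched-chain genes higher, and 3398 to 5540 of all genes. Without Blank 2 and Blank 3, Model against Blank gave 3, 2 and 0 lower and 0 branched-chain genes higher (1536 of all genes), and CDs against Blank gave 1, 2 and 0 lower and 0 higher (465 of all genes). These fits keep 1 Blank library, and the cause was not tested. With limma on log2(FPKM + 1), 1 branched-chain gene was called higher in Model. For CDs against Blank, 2 branched-chain genes were called higher with only the 6 libraries compared and without Model 1, Model 3 and CDs 1. For CDs against Model, DESeq2 called 50 of all genes, and without Model 1, Model 3 and CDs 1 there were 13 members and 1241 of all genes called. The cause was not tested.

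Deviations of same-numbered libraries had correlations of -0.37 to 0.21, over 0.1 in 3 of 9 pairs, so the replicate numbers were not taken to pair the mice. With the replicate block, 21 citrate cycle genes were called lower in Model and 16 in CDs, 2 branched-chain genes were called higher in CDs, 5672 and 4475 of all genes were called against Blank, and 0 for CDs against Model. Depth limited Bcat1 most among the members, with 2 to 7 reads per Blank library.

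For CDs against Model, 52 of 918 alternative values had the other sign, in 23 of 51 genes, and 0 of the 52 were called. With each library left out, log2 fold changes ran for Aco1 from -0.084 to 0.014, Idh2 from -0.080 to 0.045, Dld from -0.034 to 0.14, Suclg2 from -0.036 to 0.40, Sucla2 from -0.074 to 0.078, Pdha1 from -0.11 to 0.077 and Pck1 from -0.43 to 1.01. They ran for Bcat1 from -0.61 to 0.43, Bckdhb from -0.22 to 0.054, Mccc1 from -0.13 to 0.16, Auh from -0.13 to 0.061, Hibadh from -0.043 to 0.17, Pcca from -0.12 to 0.15 and Pccb from -0.017 to 0.50. The ranges were for Mcee from -0.11 to 0.32, Mmut from -0.11 to 0.21, Acat1 from -0.030 to 0.26, Hsd17b10 from -0.10 to 0.046 and Echs1 from -0.11 to 0.18. Without Model 1, Model 3 and CDs 1 it was 0.12 for Aco1, 0.13 for Idh2, 0.12 for Sucla2, 0.14 for Pdha1, 0.15 for Bckdhb, 0.015 for Dbt, 0.15 for Ivd, 0.35 for Mccc1, 0.032 for Mccc2, 0.13 for Hibch and 0.32 for Pcca. With limma on log2(FPKM + 1) it was 0.0069 for Sucla2, 0.013 for Mccc1 and 0.00080 for Pcca. With limma on log2(FPKM + 0.1) it was 0.0073 for Sucla2, 0.025 for Mccc1 and 0.00030 for Pcca. With the replicate block the value was 0.0033 for Mccc1. The cause was not tested.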
